A study of Homo sapiens with 3 samples.

Results

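The STEAP family holds 4 genes, STEAP1, STEAP2, STEAP3 and STEAP4, which were examined here through the histone marks around them in LNCaP. This human line came from a lymph node metastasis of prostate cancer and responds to androgen. ChIP-seq lists of called regions were analysed for H3K27ac, an acetylation of active enhancers and promoters, and for H3K4me1, a methylation of enhancers whether active or only primed. Each mark had 1 library and 1 list. An input library without antibody completed the 3 samples and was not analysed here, and the other cell lines named in the study design were likewise not analysed here. The members are all regions that overlap 3 windows of the hg19 build. STEAP1 and STEAP2 lie together in the window chr7:89730001-89920000, STEAP4 lies in chr7:87870001-87980000, and STEAP3 lies in chr2:119940001-120060000. The windows held 81 of the 271889 regions in both lists, 24 of 71077 for H3K27ac and 57 of 200812 for H3K4me1. The lists carry no read counts, so depth is unknown, no replicate spread could be measured and no p-value is given. A stretch without a region cannot be read as free of the mark. The catalogue number that the labels give for the H3K27ac antibody is, as far as known here, that of an H3K4me1 antibody, which could be a slip in the label. It was not checked, so the identity of the H3K27ac list, and with it every contrast between the marks, rests on the label.

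STEAP proteins are haem-containing membrane proteins. STEAP2, STEAP3 and STEAP4 also carry a cytoplasmic oxidoreductase domain that takes electrons from NADPH and passes them through the membrane to ferric iron or cupric copper, so that the reduced metal can be transported. STEAP1 lacks that domain, is abundant on the surface of many prostate cancers and is a target of antibody-based therapies. STEAP2 is also strongly expressed in prostate epithelium, STEAP3 is the ferric reductase of the endosomes in which transferrin iron is released and is a known p53 target, and STEAP4 is known from adipose tissue and from inflammatory and hormonal induction.

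The RefSeq promoter table (GRCh38.p14) held windows of 300 bases, from 250 before to 50 after the annotated start, for all 4 genes. The first start of each gene is shown to compare CpG content, because the regions over the STEAP1 and STEAP2 starts are the ones described first below. Capitals mark CpG dinucleotides, each sequence runs 5′ to 3′ on the gene's own strand, and these coordinates belong to GRCh38 and cannot be set beside the hg19 positions elsewhere in the text.
STEAP1, chr7:90154219-90154518, plus strand: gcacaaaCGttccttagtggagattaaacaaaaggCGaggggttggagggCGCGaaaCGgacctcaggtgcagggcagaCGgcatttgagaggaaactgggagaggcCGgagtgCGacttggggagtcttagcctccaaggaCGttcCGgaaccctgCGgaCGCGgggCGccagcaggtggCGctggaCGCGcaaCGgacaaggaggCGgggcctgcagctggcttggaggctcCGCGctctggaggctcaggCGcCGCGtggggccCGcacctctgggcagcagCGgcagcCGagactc
STEAP2, chr7:90211490-90211789, plus strand: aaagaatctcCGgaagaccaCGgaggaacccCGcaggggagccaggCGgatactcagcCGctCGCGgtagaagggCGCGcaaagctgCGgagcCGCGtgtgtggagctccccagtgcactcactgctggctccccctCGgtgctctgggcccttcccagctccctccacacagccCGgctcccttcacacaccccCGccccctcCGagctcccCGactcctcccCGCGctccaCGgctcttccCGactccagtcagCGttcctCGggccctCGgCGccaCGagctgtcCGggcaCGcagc
STEAP4, chr7:88306845-88307144, minus strand: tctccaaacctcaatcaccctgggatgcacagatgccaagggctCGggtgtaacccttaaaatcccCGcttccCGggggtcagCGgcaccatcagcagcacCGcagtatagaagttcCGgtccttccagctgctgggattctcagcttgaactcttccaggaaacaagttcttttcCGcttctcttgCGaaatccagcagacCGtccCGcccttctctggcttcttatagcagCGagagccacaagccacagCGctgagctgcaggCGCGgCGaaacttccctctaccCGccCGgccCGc
STEAP3, chr2:119223584-119223883, plus strand: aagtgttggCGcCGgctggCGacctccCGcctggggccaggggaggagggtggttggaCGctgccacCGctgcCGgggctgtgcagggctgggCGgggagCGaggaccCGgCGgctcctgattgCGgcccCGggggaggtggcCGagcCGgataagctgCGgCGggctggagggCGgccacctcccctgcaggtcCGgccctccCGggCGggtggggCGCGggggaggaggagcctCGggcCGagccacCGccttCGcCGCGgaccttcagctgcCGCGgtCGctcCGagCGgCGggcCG

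All 4 of these windows held more CpG dinucleotides than the median of 14 over the 35116 RefSeq promoter windows (quartiles 4 and 28). The STEAP3 window held the most, 36, with 78.7% G+C, and the STEAP4 window the fewest, 18, with 58.7% G+C. STEAP1 had 27 CpG and 66.7% G+C, and STEAP2 had 28 CpG and 70.3% G+C. STEAP2 has another annotated start 2.08 kb downstream of the first, and its window held 2 CpG and 33.7% G+C, so the starts of this 1 gene lie in very different sequence. On the other strand, the window of STEAP2-AS1, a long non-coding RNA gene, shared 204 bases with the first STEAP2 window.

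Short motifs were searched in the same windows on both strands. The full androgen response element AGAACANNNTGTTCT, found in 0.00285% of all promoter windows, and its part TGTTCT, found in 14.8%, were in none of the 5 STEAP windows. The forkhead motif TGTTTAC (3.42% of all windows) occurred 1 time, at the downstream STEAP2 start, where TATAAA (11.5%) also occurred 1 time and CCAAT (34.6%) 2 times. The GC box GGGCGG (45.0% of all windows) occurred 1 time at the first STEAP2 start, 2 times at STEAP4, 3 times at STEAP3 and not at STEAP1. The ETS core CCGGAA (17.2%) was matched 2 times at STEAP1, 1 time on each strand of the single stretch TTCCGGAA. It occurred 1 time each at the first STEAP2 start and at STEAP4. For the metal response core, only the form TGCGCNC (19.97%) was searched, and the form TGCACNC was not. TGCGCNC occurred 1 time, at the first STEAP2 start, and the E-box CACGTG (7.26%) in none. Such matches describe the letters of these windows only.

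The STEAP1 promoter has a near copy on the same chromosome. The promoter window of STEAP1B was identical to that of STEAP1 at 290 of 300 bases (96.7%), and 47 of the 251 stretches of 50 bases in the STEAP1 window occurred unchanged in that of STEAP1B. Reads were 50 bases long per the labels, so some reads could not be assigned to either gene by sequence. How the authors treated such reads is not stated in the labels, and their part in the STEAP1 values was not tested. The same comparison with STEAP2, STEAP4 and STEAP3 gave 32%, 27% and 31.3% identity.

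H3K27ac coverage was high around STEAP1 and STEAP2 and modest around STEAP4 and STEAP3. H3K27ac regions covered 74.0 kb of the 190 kb STEAP1/STEAP2 window, or 38.9 kb per 100 kb, against 4.28 kb per 100 kb on chromosome 7 and 4.65 kb over all chromosomes, or 8.37 times the level of all chromosomes. In the STEAP4 window H3K27ac covered 6.70 kb, or 6.09 kb per 100 kb, 1.31 times the level of all chromosomes. In the STEAP3 window it covered 10.9 kb, or 9.08 kb per 100 kb, against 4.49 kb on chromosome 2, and 1.95 times the level of all chromosomes.

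The enhancer mark followed another order, highest at STEAP3. H3K4me1 covered 37.5 kb of the STEAP3 window, or 31.2 kb per 100 kb, against 8.84 kb on chromosome 2 and 9.45 kb over all chromosomes, or 3.30 times the level of all chromosomes. The STEAP1/STEAP2 window had 37.1 kb of H3K4me1, or 19.5 kb per 100 kb, 2.07 times the level of all chromosomes. The STEAP4 window had 18.6 kb, or 16.9 kb per 100 kb, 1.78 times that level, and chromosome 7 as a whole had 9.46 kb per 100 kb. The STEAP1/STEAP2 window thus held about as much H3K4me1 as the STEAP3 window in kb, on a longer stretch.

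The balance of the marks differed accordingly. Dividing the length under H3K27ac by that under H3K4me1 gave 1.99 in the STEAP1/STEAP2 window, 0.361 in the STEAP4 window and 0.291 in the STEAP3 window, against 0.492 over both whole lists. Windows of 190 kb tiled along the genome had a median ratio of 0.448 where they held any H3K4me1, and 2.52% of 14263 such windows had a ratio as high as that of STEAP1/STEAP2. Among tiled windows holding a region, 48 of 14414 (0.333%) had as much H3K27ac as the STEAP1/STEAP2 window, and 17.2% had as much H3K4me1. For STEAP4, 31.5% of 23706 windows of 110 kb had as much H3K27ac and 23.1% as much H3K4me1. For STEAP3, 19.9% of 22000 windows of 120 kb had as much H3K27ac and 6.47% as much H3K4me1. The STEAP1/STEAP2 window was therefore set apart by H3K27ac more than by H3K4me1, and the STEAP3 window by H3K4me1 more than by H3K27ac. These shares describe 1 list per mark. The windows reach unequal distances beyond their genes, which moves the values per 100 kb.

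**Figure D1:**
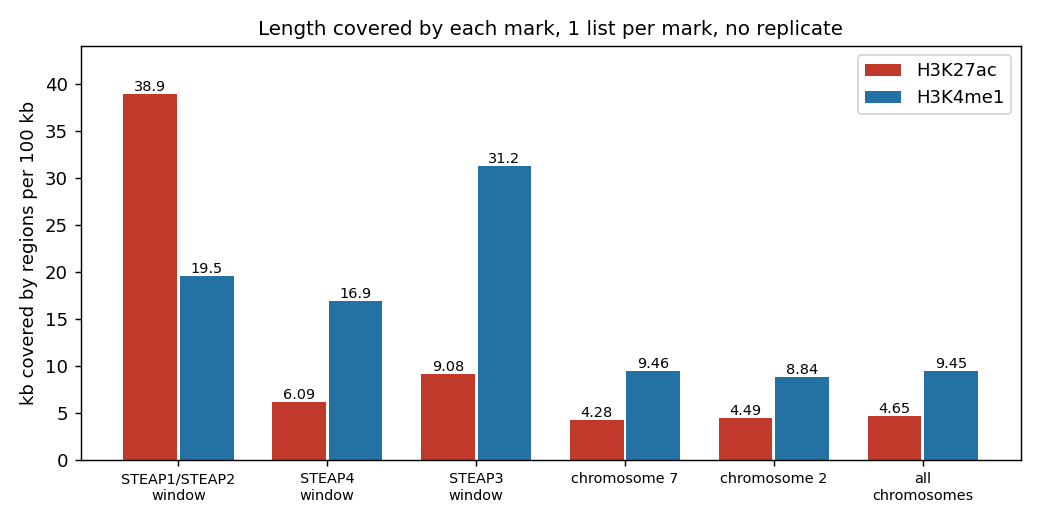
Length covered by called regions, in kb per 100 kb (y axis), for the STEAP1/STEAP2, STEAP4 and STEAP3 windows, chromosomes 7 and 2 and all chromosomes (x axis), with H3K27ac in red and H3K4me1 in blue. H3K27ac exceeds H3K4me1 in the STEAP1/STEAP2 window, at 38.9 against 19.5 kb per 100 kb, and lies below it in the other 5 pairs of bars; bars have no error because each mark has 1 list.

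A single H3K27ac region ran over the whole STEAP2 gene. It lay at chr7:89837851-89876300, was 38.5 kb wide, and had the lowest score of the list, 0.001. The score is the authors' unnamed value per region, and low scores were read as the more stringent. This region was the widest of the 3612 H3K27ac regions on chromosome 7 and ranked 16 among all 71077. It began 3.15 kb before the STEAP2 start, which is known to 1 kb, and ended 9.30 kb past the end of the STEAP2 span chr7:89841001-89867000, so that H3K27ac covered 100% of that span. In the RefSeq gene table CFAP69, a gene of sperm flagella and olfactory neurons, is the next protein-coding gene after STEAP2. No hg19 position for CFAP69 was used here, so the part of the region past STEAP2 was not assigned to either gene.

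H3K4me1 was called in separate pieces within that region. There were 13 H3K4me1 regions inside it, between 550 and 3400 bp wide with a median of 1200 bp, and together they covered 19.9 kb or 51.8% of it. Of these, 6 had a score of 0.003 and 4 had a score of 0.081 or 0.093, at the weak end of the H3K4me1 list. In the whole list, 27.8% of regions had 0.003 or less and 24.1% had 0.05 or more. The 12 gaps between them ranged from 50 bp, the step of the authors' grid, to 4.90 kb, with a median of 900 bp. The longest gap, chr7:89868301-89873200, lay past the STEAP2 span. Over the span itself H3K4me1 covered 15.0 of 26 kb, or 57.7%. The 20 other H3K27ac regions of 29.6 to 45.6 kb, a band around its own width, had a median H3K4me1 share of 76.5% (quartiles 65.5% and 95.4%), and 2 of them had a lower share than the STEAP2 region. The number of pieces was within the usual range, at 3.38 H3K4me1 regions per 10 kb against a median of 2.63 (quartiles 1.10 and 3.74), while the length they covered was lower than in most regions of its width.

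STEAP1 carried a similar, shorter arrangement. An H3K27ac region of 10.4 kb with score 0.001 lay at chr7:89782101-89792500, from 1.90 kb before the STEAP1 start to 1500 bp short of the end of its span chr7:89784001-89794000. Regions of 10 kb or more make up 0.625% of the H3K27ac list, and this window held 2 of its 444. With a small neighbour of 550 bp at chr7:89793301-89793850, it brought H3K27ac to 90.5% of the STEAP1 span, and H3K4me1 covered 35.5% of the span. Inside the region lay 3 H3K4me1 regions that covered 47.1% of it. The first, chr7:89782651-89784500, covered the start as given, the next, chr7:89784601-89786650, began 100 bp after its end, and another lay near the far end at chr7:89791351-89792350, beyond a gap of 4.70 kb. Among 656 other H3K27ac regions of 7.80 to 13 kb, the median H3K4me1 share was 88.7% (quartiles 69.9% and 98.7%), and 73 had a lower share.

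Both starts thus lay in broad H3K27ac regions, each with a pair of H3K4me1 regions close to the start. At STEAP2, the H3K4me1 region chr7:89839701-89841450 reached 0.45 kb past the start as given, and the next, chr7:89841951-89842500, began 0.95 kb past it. The first of this pair had score 0.003 and the other 0.093, the highest in the list. Because the starts are known to 1 kb, it was not determined whether they fall in the short gaps between these H3K4me1 regions.

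**Figure D2:**
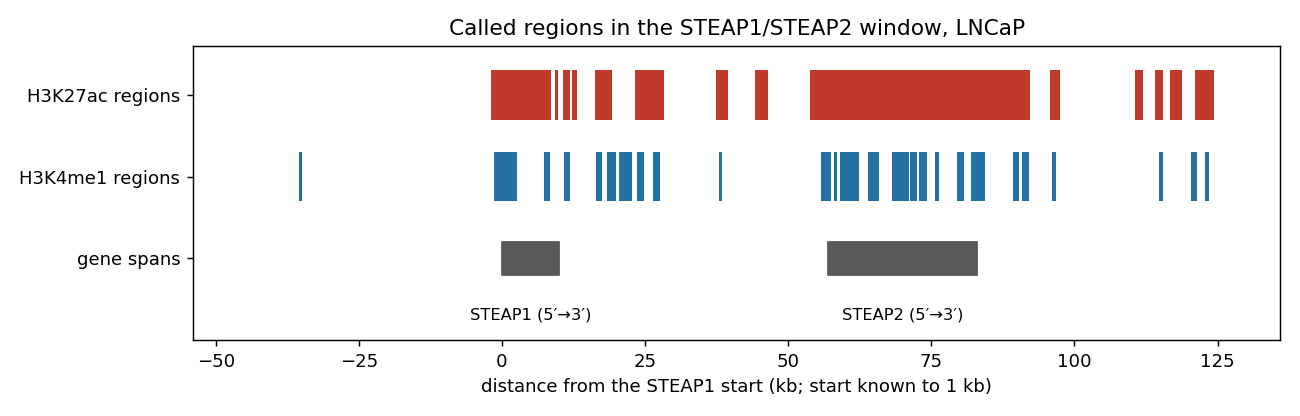
Called H3K27ac regions (top, red), H3K4me1 regions (middle, blue) and the STEAP1 and STEAP2 gene spans (bottom, grey) along the 190 kb window; the x axis is the distance from the STEAP1 start in kb. The 38.5 kb H3K27ac region spans all of STEAP2 and 13 H3K4me1 regions, and no H3K27ac region lies in the 52.1 kb at the left end.

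Between STEAP1 and STEAP2, 47 kb of sequence carried regions of both marks. H3K27ac covered 17.6 kb or 37.4% of it, of which 3.15 kb was the front of the STEAP2 region and 14.45 kb (30.7%) lay in 6 separate regions. H3K4me1 covered 10.0 kb or 21.3%. The widest of the 6 separate H3K27ac regions was 5.05 kb wide at chr7:89807301-89812350, with score 0.001 and 45.5% of its length in 2 H3K4me1 regions. The widest H3K4me1 region outside the broad STEAP2 region, 2.35 kb at chr7:89804451-89806800 with score 0.003, carried no H3K27ac, though an H3K27ac region began 500 bp from it. The 3 widest H3K4me1 regions of the whole window all lay inside the STEAP2 region, at chr7:89843001-89846400, chr7:89852051-89855150 and chr7:89865901-89868300, with 3.40, 3.10 and 2.40 kb and a score of 0.003 each. Beyond STEAP2, 53 kb of the window had 36.6% H3K27ac and 12.45% H3K4me1. Of the 19.4 kb of H3K27ac there, 9.30 kb was the tail of the STEAP2 region, and 5 separate regions covered 10.1 kb or 19.1%.

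Called regions were sparse before STEAP1. The stretch chr7:89730001-89782100, 52.1 kb long, held no H3K27ac region, and the preceding H3K27ac region ended at 89508900, 273 kb before the one at STEAP1. The 54 kb upstream of the STEAP1 start held 3.52% H3K27ac and 3.61% H3K4me1, all of the H3K27ac in the last 1.90 kb. The sole H3K4me1 region away from the start, 600 bp at chr7:89748551-89749150, had a score of 0.081 and lay 33.0 kb from any H3K27ac. The longest stretch without H3K4me1, 33.5 kb at chr7:89749151-89782650, followed it.

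Most H3K4me1 regions of the STEAP1/STEAP2 window met H3K27ac, whereas fewer of its H3K27ac regions met H3K4me1. Of the 28 H3K4me1 regions, 26 overlapped H3K27ac by at least 1 bp (92.9%, exact 95% interval 76.5% to 99.1%), against 34.5% of the whole H3K4me1 list. Of those, 24 lay wholly inside an H3K27ac region, and 16 lay in the 2 broad regions over the gene starts. Of the 14 H3K27ac regions, 9 overlapped H3K4me1 (64.3%, interval 35.1% to 87.2%), a range that holds the 83.1% of the whole H3K27ac list. Where H3K4me1 had to cover at least 50% of the region, 3 of the 14 qualified (21.4%, interval 4.66% to 50.8%), against 70.8% of the list. The marks shared 32.9 kb of the window. That made up 44.4% of what H3K27ac covered, against 71.5% over all chromosomes, and 88.5% of what H3K4me1 covered, against 35.1%. Neighbouring regions are not independent, and wide regions meet the other mark more easily, so the intervals cover counting error only and are too narrow.

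The 5 H3K27ac regions without H3K4me1 in this window were spread over both sides of STEAP2. The widest, 2.20 kb at chr7:89828201-89830400 with score 0.004, lay 5.80 kb from the nearest H3K4me1 region, between the genes. Next were 2.15 kb at chr7:89900651-89902800 (score 0.009) and 1.45 kb at chr7:89894551-89896000 (score 0.024), both past STEAP2 and 1250 and 2750 bp from H3K4me1. The remaining pair, 950 bp at chr7:89796201-89797150 (score 0.020) and the region of 550 bp at the STEAP1 end (score 0.048), lay 400 and 950 bp from H3K4me1. The last of these had both the smallest width and the highest score in the H3K27ac list.

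At STEAP4 every H3K27ac region overlapped H3K4me1, and none was broad. The 5 H3K27ac regions were 650 to 1900 bp wide with a median of 1450 bp, against 1600 bp for the whole list, and none had the lowest score of 0.001, which 14.3% of the list carried. The 3 widest lay at chr7:87910301-87912200 (1.90 kb, score 0.009, 100% in H3K4me1), chr7:87905451-87907050 (1.60 kb, score 0.009, 84.4%) and chr7:87920551-87922000 (1.45 kb, score 0.014, 93.1%). All 5 fell in 27.7 kb, leaving 46.9 kb without a called H3K27ac region at chr7:87933101-87980000. The next H3K27ac region on that side began 73.3 kb away. The overlap of 5 of 5 has an exact interval of 47.8% to 100%, a range that holds the 83.1% of the list. Where H3K4me1 had to cover at least 50% of the region, 4 of 5 qualified (80%, interval 28.4% to 99.5%), against 70.8% of the list. The exception, chr7:87918851-87919950, had 31.8% of its length in H3K4me1, in a region of score 0.093. With scores under 0.05 in both lists this overlap was lost, which left 80% with H3K4me1. At scores up to the list medians the share was 66.7% of 3 regions (interval 9.43% to 99.2%).

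H3K4me1 reached further than H3K27ac around STEAP4. Of 13 H3K4me1 regions, 6 overlapped H3K27ac (46.2%, interval 19.2% to 74.9%), a range that holds the 34.5% of the list. The 3 widest were chr7:87909201-87912300 (3.10 kb), chr7:87903201-87906250 (3.05 kb) and chr7:87931001-87933200 (2.20 kb), each with score 0.003 and each in part acetylated. The widest without H3K27ac was 1.80 kb at chr7:87935151-87936950, also with score 0.003, and lay 2.05 kb from H3K27ac. Others without it were chr7:87887601-87889000 (1.40 kb, score 0.008), chr7:87908101-87909000 (900 bp, score 0.044), chr7:87893251-87894100 (850 bp, score 0.081) and chr7:87939901-87940750 (850 bp, score 0.034). The 2 remaining regions without H3K27ac, of 550 and 600 bp, both had score 0.081. The longest stretch without H3K4me1 was 33.9 kb at chr7:87940751-87974600. The hg19 limits of STEAP4 and STEAP3 inside their windows were not used here, so regions there were not assigned to promoter or gene body.

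STEAP3 combined high H3K4me1 coverage with 5 H3K27ac regions, whose coverage was 1.95 times the level of all chromosomes. Its 16 H3K4me1 regions had a median width of 1625 bp, against 1050 bp for the whole list, and 8 of them had a score of 0.003, against 27.8% of the list at 0.003 or less. The 3 widest were chr2:119996051-120001900 (5.85 kb), chr2:120047851-120053200 (5.35 kb) and chr2:119974251-119978600 (4.35 kb), all with score 0.003. In the H3K4me1 list, 1.59% of regions were as wide as the first of these or wider. Of the 16, 4 overlapped H3K27ac (25%, interval 7.27% to 52.4%), a range that holds the 34.5% of the list.

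Wide H3K4me1 regions without H3K27ac were found together near the middle of the STEAP3 window. The widest was 4.10 kb at chr2:119980101-119984200, 3.25 kb from H3K27ac. It was followed by 3.45 kb at chr2:119989301-119992750, 2.05 kb at chr2:119993751-119995800 and 1500 bp at chr2:119986501-119988000, lying 4.40, 1.35 and 9.15 kb from H3K27ac, and these 4 all had score 0.003. Another, 1.75 kb at chr2:119963151-119964900 with score 0.008, lay 11.2 kb from H3K27ac. By contrast, the widest H3K4me1 region without H3K27ac in the STEAP1/STEAP2 window was 2.35 kb and that in the STEAP4 window 1.80 kb.

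The 5 H3K27ac regions of the STEAP3 window lay almost wholly on H3K4me1. H3K4me1 covered 98.2% of their length, against 71.5% over the whole list. All 5 of 5 overlapped it (interval 47.8% to 100%), a range that holds the 83.1% of the list. The 3 widest were chr2:120048401-120052600 (4.20 kb), chr2:120040051-120042800 (2.75 kb) and chr2:119997151-119999650 (2500 bp), and each had score 0.001. The other 2, of 800 and 650 bp, had scores of 0.021 and 0.032. The first 2 of the 3 lie near the right limit of the window, past a stretch of 39.5 kb without H3K27ac at chr2:120000601-120040050. C2orf76 is the next protein-coding gene after STEAP3 in the RefSeq gene table, and these regions were not assigned to a gene. The longest stretch without H3K4me1 was 20.7 kb at chr2:120017501-120038200.

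**Figure D3:**
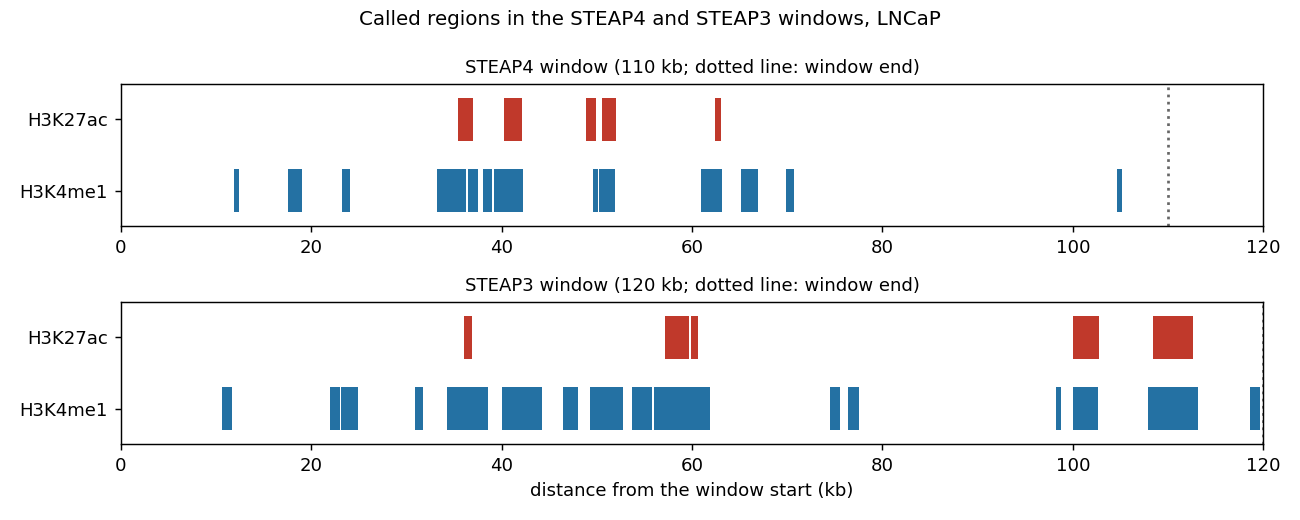
Called H3K27ac (red, upper row) and H3K4me1 (blue, lower row) regions in the STEAP4 window of 110 kb and the STEAP3 window of 120 kb; the x axis is the distance from the window start in kb. In both, all 5 H3K27ac regions overlap H3K4me1 regions, and H3K4me1 regions without H3K27ac number 7 of 13 at STEAP4 and 12 of 16 at STEAP3. Over the whole lists, 83.1% of H3K27ac regions overlap H3K4me1 and 34.5% of H3K4me1 regions overlap H3K27ac.

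Widths summarised the contrast among the genes. Over the 3 windows the 24 H3K27ac regions had a median width of 1850 bp, against 1600 bp for the list, and the 57 H3K4me1 regions 1150 bp, against 1050 bp. The medians alone hid the STEAP1/STEAP2 window, where the H3K27ac median was 2100 bp but the range was 550 to 38450 bp. An H3K27ac score of 0.001 was found in 3 of 14 regions at STEAP1/STEAP2, 0 of 5 at STEAP4 and 3 of 5 at STEAP3, against 14.3% of the list. H3K4me1 scores of 0.05 or more, at the weak end, were carried by 6 of 28, 4 of 13 and 2 of 16 regions in the same order of windows, against 24.1% of the list.

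**Figure D4:**
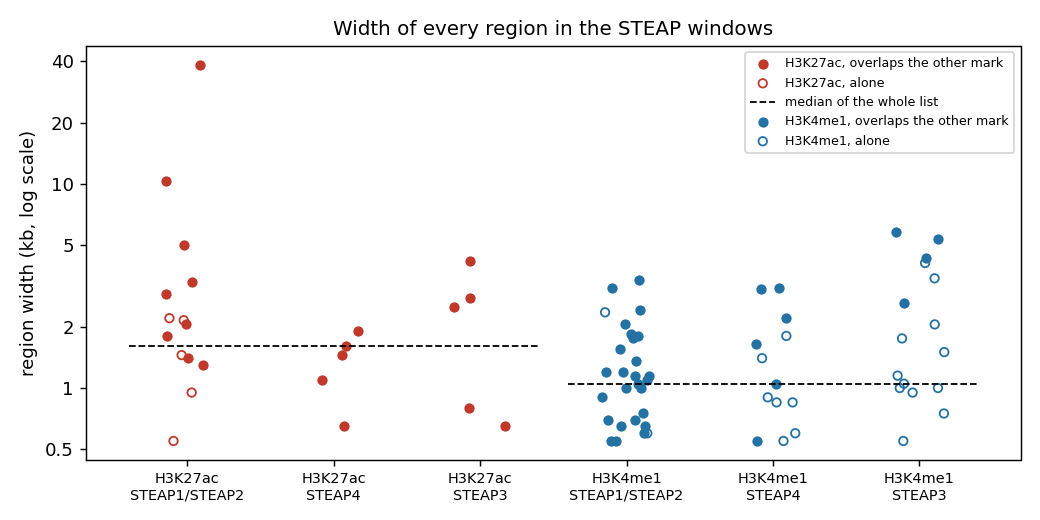
Width of every region in kb (y axis, log scale) by mark and window (x axis); filled points overlap the other mark, open points do not, and dashed lines give the median of each whole list, 1.60 kb for H3K27ac and 1.05 kb for H3K4me1. The 38.5 and 10.4 kb H3K27ac regions stand above all others, and at STEAP3 open H3K4me1 points reach 4.10 kb.

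**Figure D5:**
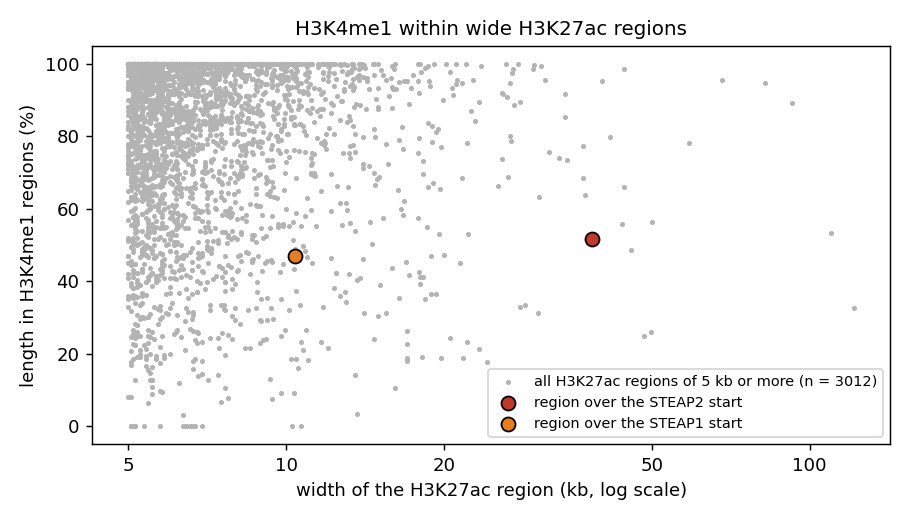
Share of each H3K27ac region that lies in H3K4me1 regions, in percent (y axis), against the width of the region in kb (x axis, log scale), for the 3012 regions of 5 kb or more, 1 grey point each. The region over the STEAP2 start (51.8%, 38.5 kb) and that over the STEAP1 start (47.1%, 10.4 kb) are marked in colour and lie below most regions of like width.

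Joining neighbouring H3K27ac regions over the distance usual for stitching super-enhancers put STEAP1 and STEAP2 into 1 cluster. It ran over 99.4 kb at chr7:89782101-89881500, held 10 regions that covered 65.7 kb, and ranked 47 among 37027 clusters by covered length. H3K4me1 covered 47.4% of that length. The other 4 H3K27ac regions of the window formed a cluster with 8.30 kb covered, rank 3536, in which H3K4me1 covered 20.5%. The 5 STEAP4 regions formed 1 cluster with 6.70 kb covered, rank 4912. The STEAP3 window held a single region and a pair as small clusters, and its right-hand regions belonged to a cluster of 13 regions at chr2:120040051-120125600 with 29.4 kb covered, rank 271, most of which lay outside the window. Joining at 5 kb separated STEAP1, with 21.2 kb covered, from STEAP2, with 40.3 kb covered at rank 64 of 50647. It also left the longest cluster touching the STEAP3 window at 4.20 kb.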

How the data were processed

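ChIP-seq of H3K27ac and H3K4me1 in LNCaP cells was taken as deposited by the authors, as 1 BED list of regions per mark. Per the submitters' processing notes Bowtie 0.12.8 and hg19 were used. For the region caller, its threshold, duplicate handling and any use of the input, nothing is stated in those notes or the labels. The deposited score, unnamed, takes 12 values in the H3K27ac list and 13 in the H3K4me1 list, and served only to rank or filter within a list. The other deposited columns, start and end, lie on a 50 bp grid, which limits the resolution of widths and gaps. Caller and threshold set the number and width of regions. The labels name antibodies 39297 for H3K27ac and 39298 for H3K4me1. As far as known here, both numbers are sold as H3K4me1 antibodies. This was not checked, and the marks are called as labelled.

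Starts were read as 0-based and are printed from 1. Mitochondrial regions were left out. Overlap meant at least 1 bp, intervals were exact Clopper-Pearson, and densities were per 100 kb from position 1 to the last region end of each chromosome (3093 Mb in all). Gene spans for STEAP1 and STEAP2, to 1 kb, and the windows came with the choice of members. No hg19 annotation was used, so iron and copper genes and LNCaP marker genes were not placed. Regions named in full were the 3 widest per mark and window, those at the STEAP1 and STEAP2 starts, up to 5 with 1 mark alone per mark and window, and the longest stretch without a region. The members, windows, motifs and lists were chosen with earlier results of these data known. The interval computations were tested on simulated data. Tables were read with pandas 2.3.3 and numpy 2.4.6 in Python 3.11.15, intervals came from scipy 1.17.1, and plots from matplotlib 3.10.9.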

Additional observations from a re-analysis of the deposited data

How the results depend on the processing

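Of 70 alternative values, 61 stayed within the interval of the main share or within 1.5-fold of the main length or count, and 9 did not. Requiring 50% of the region to be covered left 21.4% of H3K27ac regions of the STEAP1/STEAP2 window with H3K4me1. Joining within 5 kb gave longest clusters of 40.3 kb at STEAP1/STEAP2, 3.50 kb at STEAP4 and 4.20 kb at STEAP3, and scores at or below the list median gave 6.95 kb at STEAP3. Within 1 kb and within 2 kb, the H3K4me1 regions at the STEAP1 start numbered 2 and 2, and those at the STEAP2 start 2 and 2. Wider limits reach more regions by construction. For covered lengths, score limits, windows widened by 50 kb and uncut regions moved no value by over 1.5-fold. The 61 include settings that could not move a length. No H3K27ac score reached 0.05, so that limit left the H3K27ac lengths unchanged. No region crossed a window limit, so leaving regions uncut changed no length. For shares of few regions the interval is wide, so staying within it was a lax rule. At STEAP4 the H3K27ac share of 100% (interval 47.8% to 100%) counted as unmoved at 80% with scores under 0.05. It also counted so at 66.7% of 3 regions with scores at or below the list median. At STEAP1/STEAP2 H3K27ac was 35.0 kb per 100 kb at scores up to the list median and 26.7 kb in the widened window. Tiling from a later start moved no median by over 1.5-fold. After seeing the data, 2 settings were added for the broad region over STEAP2, whose H3K4me1 share was 57.1% with H3K4me1 regions within 1 kb merged and 45.0% with H3K4me1 scores under 0.05. No paired analysis was possible because neither mark has a replicate. With depth unknown, a stretch outside all regions may still carry a mark.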

Other observations

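The 1.75 Mb of chromosome 7 between the STEAP4 window and the STEAP1/STEAP2 window (chr7:87980001-89730000) held few called regions of either mark. It held 8 H3K27ac regions covering 8.90 kb, or 0.509 kb per 100 kb, and 29 H3K4me1 regions covering 29.6 kb, or 1.69 kb per 100 kb. Of the 8 H3K27ac regions, 5 overlapped H3K4me1, against 83.1% of the whole H3K27ac list, and no interval was computed for so few. The 100 kb just before the STEAP1/STEAP2 window had no H3K27ac and 2.85 kb of H3K4me1, while in the 100 kb after it H3K27ac covered 7.15 kb and H3K4me1 covered 9 kb. At STEAP3 the stretch past the window was the richer one too, where H3K27ac covered 28.1 kb and H3K4me1 33.7 kb of 100 kb, against 2.45 and 11 kb of the 100 kb before it. At STEAP4, H3K27ac covered 6.15 kb and H3K4me1 7.95 kb of the 100 kb before the window, and 2.45 and 0.55 kb of the 100 kb after it.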
